A study of Mus musculus with 60 samples.

Results

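Epithelial regulators in mouse tail tip fibroblasts taken through the first days of reprogramming were described gene by gene from 2 tables of RNA-seq read counts. The 9 genes were a list of regulators chosen with earlier results of these data known, so their calls do not test an independent list. Of them 8 are transcription factors and 1 an RNA-binding splicing regulator, and each was found by its Ensembl identifier among the 56980 genes of each table. They are the AP-2 factors Tfap2a and Tfap2c, the grainyhead-like factors Grhl1, Grhl2 and Grhl3, the p53 relative Trp63, the zinc finger proteins Ovol1 and Klf5, and the splicing regulator Esrp1. Enough reads for a test were found for 5 of the 9 in the reprogramming series (Tfap2a, Grhl1, Grhl3, Trp63 and Klf5) and for 3 in the inhibitor series (Tfap2a, Trp63 and Klf5). They did not move as one group. Grhl3 rose most where ascorbic acid and CHIR-99201 (together VC) were present, Klf5 fell with reprogramming in both genotypes, Tfap2a stood higher in Ercc1 mutant (D/KO) than in wild-type (WT) cells at every time sampled, Trp63 rose from near 0 in D/KO without VC and rose plus VC in WT, and Tfap2c, Grhl2, Ovol1 and Esrp1 stayed at or near 0 reads in most libraries.

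Epithelial cells are held together by junctions and rest on a basement membrane, and a small set of regulators keeps that state going. Grainyhead-like factors act on genes of junctions and of the skin barrier, AP-2 factors and p63 (the product of Trp63) maintain the basal layer of stratified epithelia, Klf5 supports proliferating epithelial cells, Ovol1 opposes mesenchymal programmes, and Esrp1 sets the epithelial pattern of splicing. Fibroblasts are mesenchymal and normally express little of most of these genes, and a shift from mesenchymal to epithelial expression is known as an early step when fibroblasts are reprogrammed with Pou5f1, Sox2, Klf4 and Myc.

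The 60 libraries fall into 20 groups of 3. The reprogramming table holds 36 libraries of tail tip fibroblasts. The mutant line, D/KO, is labelled 4FJ_ERCC1_(d/-) and came from male mice of 8 weeks, and the wild-type line, WT, is labelled 4FJ_(+/-)_OCT4-GFP and came from female mice of 22 weeks. Both carry a doxycycline-inducible cassette of the 4 factors at Col1a1. The study names a transactivator at ROSA26 for D/KO but not for this WT line, and cites different source mice for them. The cassettes may therefore differ too. D/KO carries a single, truncated Ercc1 allele, Ercc1 being part of a nuclease used in DNA repair. Cells were sampled at day 0, and at days 2 and 4 of doxycycline at 2 µg/ml, each with and without VC, which is ascorbic acid at 50 µg/ml with CHIR-99201 (so spelled in the labels) at 3 µM. In the inhibitor table (24 libraries), D/KO tail tip fibroblasts labelled ERCC1_(d/-), from females of 4 weeks and with no factor cassette in their label, were controls or received Repsox or Vactosertib (0.1 µM) or DMH-1 or A83-01 (1 µM) for 3 days. The time comes from the published methods, and the doses from a figure legend for the DNA methylation clock, not from the labels. The study extracted RNA and DNA from the same samples. Repsox, Vactosertib and A83-01 block the type I receptor of TGFb, and DMH-1 blocks type I receptors of BMP. Vactosertib also blocks ALK2, a type I receptor of BMP, so it is not selective for the TGFb receptor. ERCC1_(+/+)_WT control fibroblasts of tail tip and of skin, from females of 14 weeks, were in the same table, with 3 further WT libraries of the 4FJ_(+/-)_OCT4-GFP line whose treatment is labelled TGFB. Between D/KO and WT, genotype, age and line differ together in both tables, and sex as well in the reprogramming table, so these cannot be told apart. No source used here says that replicates were separate cultures or animals, so p-values measure the spread between these libraries, which may be technical.

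Libraries held 16538374 to 18484951 counted reads in the reprogramming table and 17102639 to 30599138 in the inhibitor table. Ercc1 itself gave 8.79 to 17.3 CPM (read counts scaled to a common library size, here before TMM scaling) in D/KO and 16.3 to 31.4 in WT libraries of the reprogramming table, with an overlap, and 14.6 to 25 against 12.9 to 40.4 in the inhibitor table. A truncated allele can still give reads, so these values do not check the labels. All 12 fibroblast markers were above 1 CPM after TMM scaling in every group, the scale of all CPM values that follow. The 8 endothelial markers together reached 235 to 857 CPM in D/KO and 6.04 to 116 in WT libraries of the reprogramming table, and the 8 haematopoietic markers 4.57 to 13.5 in D/KO and 42.2 to 148 in WT. These marker levels therefore move with genotype beside every D/KO and WT comparison that follows, and their part in the results was not tested. In bulk RNA, fewer cells of a type and less RNA per cell cannot be told apart.

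Promoter sequence is shown for Grhl3, whose rise plus VC is described next, and for its relative Grhl1, whose reads were too few for a firm comparison. RefSeq promoter windows (GRCm38.p6) were held here for 3 of the 9 members, Tfap2a, Grhl1 and Grhl3. The 250 bases before the start are printed 5′ to 3′ on the gene's strand, and each run was found once in GRCm39, for Grhl3 at chr4:135300944-135301193 on the minus strand and for Grhl1 at chr12:24622036-24622285 on the plus strand. Capitals mark matches to GGGNGTG (a KLF-type motif), CAGGTG (an E-box of the kind bound by ZEB and SNAI factors) and GCCNNNGGC (an AP-2-type motif), searched on both strands.
Grhl3: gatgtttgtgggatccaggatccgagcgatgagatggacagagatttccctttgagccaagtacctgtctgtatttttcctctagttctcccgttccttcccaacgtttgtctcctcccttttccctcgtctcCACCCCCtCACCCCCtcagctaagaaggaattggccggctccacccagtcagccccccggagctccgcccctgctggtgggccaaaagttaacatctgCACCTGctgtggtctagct
Grhl1: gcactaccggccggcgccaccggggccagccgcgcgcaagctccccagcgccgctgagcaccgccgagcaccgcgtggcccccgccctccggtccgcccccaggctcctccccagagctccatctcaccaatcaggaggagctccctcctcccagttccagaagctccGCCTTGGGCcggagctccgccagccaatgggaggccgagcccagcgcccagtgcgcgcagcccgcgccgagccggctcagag
The Grhl3 window held GGGNGTG at positions -117 and -109 and CAGGTG at -19 from the start, with a further CAGGTG at 8 (positions give the first base of a match, with the start base as 0). The printed Grhl1 window held GCCNNNGGC at -82, and a second Grhl1 window, not printed, held none of the 4 motifs. No window held the grainyhead motif AACCNGTT, and the 2 Tfap2a windows held none of the 4 motifs. Of all 32851 mouse windows of 300 bases, 29.2% held GGGNGTG, 20.2% CAGGTG, 16.6% GCCNNNGGC and 2.1% AACCNGTT. A match is a description of the letters and not of binding.

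Grhl3 (ENSMUSG00000037188, GRCm39 chr4:135269199-135300941, minus strand) encodes a grainyhead-like factor of barrier epithelia. Its reads in D/KO were 5, 2 and 3 at day 0, 3, 2 and 3 at day 2, and 7, 1 and 11 at day 4. With VC they were 1, 2 and 1 at day 0, 74, 47 and 62 at day 2, and 79, 95 and 96 at day 4. The D/KO libraries of days 2 and 4 plus VC lay apart from all D/KO libraries without VC, none of which passed 11 reads. WT cells gave 0, 0 and 6 reads at day 0, 3, 3 and 1 at day 2, and 8, 16 and 14 at day 4, and with VC 0, 0 and 0 at day 0, 28, 35 and 29 at day 2, and 49, 63 and 69 at day 4. Here too every library of days 2 and 4 plus VC was above every library without VC.

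Grhl3 passed the filter on low counts through the groups of days 2 and 4 plus VC, in which it is high, so a difference in their favour was partly built into its place among the genes tested. With no filter, where every gene with a read was tested, the D/KO rises at days 2 and 4 plus VC were 5.14 and 5.60 (adjusted p = 1.77e-14 and 8.88e-18), VC against no VC was called at both days in both genotypes, and the change with VC exceeded that without VC in D/KO by 5.54 and 4.87 (adjusted p = 2.56e-05 and 6.43e-05). These p-values come from the same reads, fitted with a changed set of genes, so they are no separate support.

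With the filter, against day 0 plus VC, Grhl3 rose in D/KO by 5.13 on the log2 scale at day 2 (SE 0.63, adjusted p = 1.5e-08, edgeR's quasi-likelihood F-test, adjusted by Benjamini-Hochberg over all genes, which stands behind every adjusted p given) and by 5.59 at day 4 (SE 0.62, adjusted p = 1.02e-09). In WT, where the day 0 group plus VC had no read, it was at least 28.4-fold higher at day 2 and at least 52.7-fold higher at day 4 (bounds set against 3 reads over the group). Such bounds cover counting error in the group at 0 only, and not the spread between libraries. Without VC, Grhl3 rose in WT at day 4 (log2 2.59, SE 0.67, adjusted p = 0.00358) and was not called in D/KO at day 4 (0.73, SE 0.67). VC against no VC gave log2 4.48 at day 2 and 3.80 at day 4 in D/KO, and 3.78 and 2.30 in WT, all 4 called. The change with VC exceeded the change without VC in D/KO at day 2 by 5.54 (SE 1.09, adjusted p = 0.000394) and at day 4 by 4.87 (SE 1.03, adjusted p = 0.000405). The matching WT differences were called too, but without WT day 0 replicate 3, the only library of its group with reads, their adjusted p was 1 at both days. Grhl3 was not called between D/KO and WT at any time, and neither was the difference between the genotypes' changes, but single libraries decided some of this. Without D/KO day 4 replicate 3, D/KO was lower at day 4 (log2 -1.62, adjusted p = 0.0384). Without WT day 0 replicate 3 the WT day 0 group had no read, and D/KO was called higher at day 0 (adjusted p = 0.0072) and its change at day 4 smaller than in WT (adjusted p = 0.0068), with fitted values that are no bound. VC alone at day 0 gave no call, and in WT a fall was called without WT day 0 replicate 1 (adjusted p = 0.0287) or replicate 2 (0.027), where all 6 reads lay in the third library. Per kilobase of exon, Grhl3 was the highest member in D/KO at day 4 plus VC, at 1.74 CPM per kb against 0.642 for Tfap2a and 0.492 for Klf5. Over the 12 groups ranked by mean CPM, 8 of the 11 neighbouring pairs overlapped in range, and the clear steps lay below WT day 4 plus VC (3.34 CPM), below WT day 2 plus VC (1.80 CPM) and above the group at 0.

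Grhl1 (ENSMUSG00000020656, chr12:24622282-24667390, plus strand), a desmosome-associated relative of Grhl3, was at or under 15 reads throughout. The highest values were 14, 11 and 15 reads in D/KO at day 4 plus VC, against 5, 0 and 0 at day 0 plus VC, and WT gave 6, 7 and 3 reads against 0, 0 and 0. Both day 4 groups plus VC lay above their day 0 groups plus VC. Grhl1 passed the filter on low counts only through the D/KO libraries of day 4 plus VC, since no other library had over 7 reads, so a difference in that group was built in and its p supports nothing. The fitted D/KO difference (log2 2.57, SE 1.04, adjusted p = 0.0366) was not called with no filter (0.0831), by DESeq2 (0.116) and in 5 of the 6 edgeR fits that left out a library, with adjusted p up to 0.145 without replicate 3 of day 0 plus VC. In WT it was at least 4.66-fold higher (adjusted p = 0.0174, and 0.0501 without replicate 1 of day 0 plus VC). The third grainyhead-like gene, Grhl2 (chr15:37233280-37363813, plus strand), a direct activator of Cdh1 in epithelia, had 3 reads in all 36 reprogramming libraries together and 0 in 34 of them. No change of Grhl2 was detectable at this depth.

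**Figure D1:**
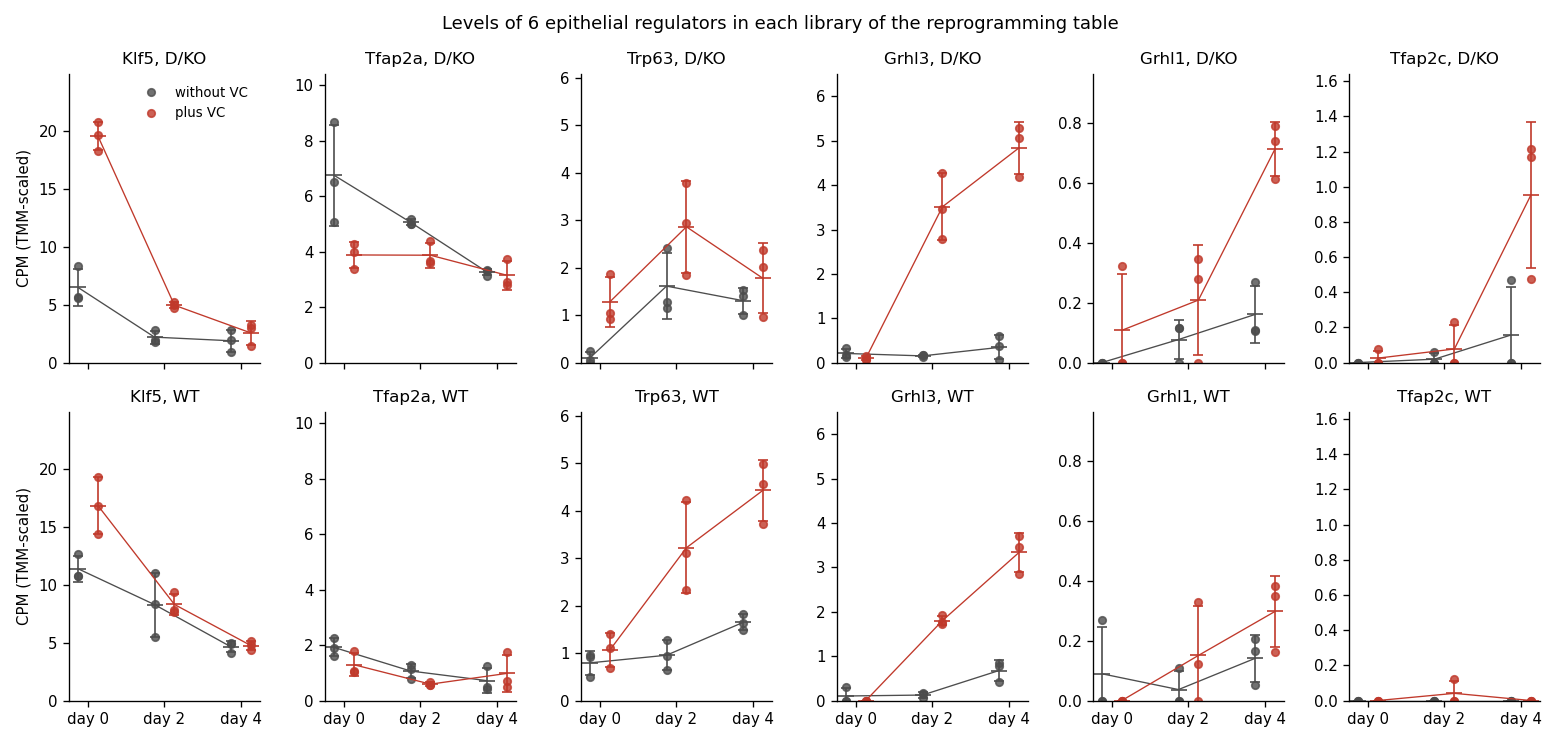
Levels of 6 epithelial regulators in CPM (TMM-scaled, linear axes from 0) at days 0, 2 and 4 in D/KO (upper row) and WT (lower row) cells, without VC (grey) and plus VC (red). Points are single libraries, bars the mean ± SD of 3, and lines join the means. Grhl3 climbs with VC in both rows, Klf5 starts highest at day 0 plus VC and declines, and Tfap2c averages 0.953 CPM in D/KO at day 4 plus VC.

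Tfap2a (ENSMUSG00000021359, chr13:40868778-40891852, minus strand), an AP-2 factor of surface ectoderm and neural crest, was the member most clearly set apart by genotype. D/KO libraries gave 101, 148 and 86 reads at day 0, 87, 86 and 95 at day 2, and 61, 64 and 58 at day 4, and with VC 52, 53 and 61, then 63, 74 and 64, then 53, 52 and 71. WT libraries gave 29, 42 and 37 at day 0, 24, 22 and 14 at day 2, and 24, 8 and 9 at day 4, and with VC 28, 17 and 16, then 11, 10 and 9, then 30, 9 and 13. The lowest D/KO library (52 reads) was above the highest WT library (42 reads). D/KO exceeded WT in all 6 comparisons, by log2 1.58 to 2.70, and in every fit that left out a library (adjusted p at most 0.00517). With reprogramming, Tfap2a fell in D/KO at day 4 by 1.05 on the log2 scale (SE 0.29, adjusted p = 0.00341) and in WT at day 4 by 1.40 (SE 0.36, adjusted p = 0.0033). Plus VC neither day 4 group was called (log2 -0.30 in D/KO and -0.41 in WT), but without WT day 4 plus VC replicate 1, which held 30 reads against 9 and 13, the WT fall was -1.10 and called (adjusted p = 0.0274). The 2 further calls were WT at day 2 plus VC (log2 -1.12, adjusted p = 0.0316) and VC alone in D/KO at day 0 (log2 -0.80, adjusted p = 0.0367). They were lost in 4 and 5 of 6 fits without a library, down to adjusted p = 0.197 without WT day 0 plus VC replicate 1 and 0.21 without D/KO day 0 replicate 2. The genotypes' changes over time did not differ by the test. The Tfap2a locus overlaps 3 genes of the opposite strand, and opposite-strand genes also overlap Grhl2, Grhl3, Trp63, Ovol1 and Esrp1. The strand setting of the counting is not given in the sources used here.

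Its relative Tfap2c (ENSMUSG00000028640, chr2:172391513-172400542, plus strand), an AP-2 factor of trophoblast, germ line and epidermis, was at 0 in 28 of 36 reprogramming libraries. In D/KO at day 4 plus VC it gave 23, 21 and 9 reads (0.953 ± 0.416 CPM, SD, n = 3), and at day 4 without VC 0, 9 and 0. All 3 libraries of day 4 plus VC had reads, and so did 1 library of day 4 without VC. The 53 reads of D/KO at day 4 plus VC stood against 1 read at day 0 plus VC, a ratio of 40.8 (95% counting interval 7.01 to 1641, which covers counting error only), and against 0 reads in WT at day 4 plus VC, at least 17.1-fold. Tfap2c did not pass the filter on low counts, so no test across libraries was made.

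Trp63 (ENSMUSG00000022510, chr16:25502513-25710852, plus strand) encodes p63, the regulator of basal epithelial cells. D/KO gave 1, 4 and 0 reads at day 0, 42, 22 and 21 at day 2, and 28, 19 and 26 at day 4. With VC it gave 29, 14 and 13 at day 0, 51, 64 and 33 at day 2, and 18, 36 and 45 at day 4. The D/KO day 0 libraries without VC were the lowest of all 12 groups and did not overlap any other group. WT gave 9, 18 and 18, then 12, 25 and 17, then 32, 28 and 33 without VC, and 11, 18 and 21, then 38, 77 and 51, then 86, 68 and 85 with VC. In WT the days 2 and 4 plus VC lay above every library without VC.

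Trp63 rose in D/KO without VC at day 2 (log2 3.90, SE 0.61, adjusted p = 2.79e-06) and day 4 (3.60, SE 0.62, adjusted p = 8.53e-06), from that low start. In WT the same changes were 0.26 and 1.04 and were not called (adjusted p = 0.791 and 0.0674). The difference between the genotypes' changes was 3.64 at day 2 (SE 0.78, adjusted p = 0.00212) and 2.56 at day 4 (SE 0.79, adjusted p = 0.0232, and up to 0.0949 without D/KO day 0 replicate 3). Plus VC the order turned, with a called difference at day 4 only. WT rose by 1.60 at day 2 (adjusted p = 0.00229) and 2.05 at day 4 (SE 0.40, adjusted p = 5.79e-05), D/KO rose by 1.14 at day 2 (adjusted p = 0.0176, and 0.105 without D/KO day 2 plus VC replicate 2) and was not called at day 4 (0.46, adjusted p = 0.361). The difference at day 4 plus VC was -1.60 (SE 0.57, adjusted p = 0.033, and 0.166 without D/KO day 0 plus VC replicate 1). VC alone raised Trp63 in D/KO at day 0 by 3.59 (SE 0.63, adjusted p = 2.44e-05), and in WT at day 0 gave 0.41 with no call. Set against day 0 without VC instead, D/KO at day 4 plus VC was 4.04 higher (adjusted p = 3.8e-07). Between D/KO and WT, Trp63 was lower in D/KO at day 0 (log2 -2.90, adjusted p = 0.00045) and at day 4 plus VC (-1.32, adjusted p = 0.00316). VC against no VC raised Trp63 in WT at day 2 (1.75, adjusted p = 0.00105) and day 4 (1.42, adjusted p = 0.00418). In D/KO the same difference at day 2 (0.83, adjusted p = 0.115) was called without D/KO day 2 replicate 1 (1.24, adjusted p = 0.0421). The level ranking was shallow otherwise, and 10 of 11 neighbouring groups overlapped in range.

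Klf5 (ENSMUSG00000005148, chr14:99536127-99552472, plus strand), a Krüppel-like factor of proliferating epithelium that shares its family with the delivered factor Klf4, was the member with the most reads. D/KO gave 86, 96 and 141 reads at day 0, 34, 31 and 52 at day 2, and 36, 17 and 52 at day 4. With VC it gave 283, 261 and 296 at day 0, 81, 84 and 93 at day 2, and 57, 25 and 62 at day 4. Both D/KO day 0 groups lay above their own days 2 and 4. WT gave 195, 236 and 210, then 205, 162 and 100, then 97, 77 and 88 without VC, and 228, 274 and 291, then 153, 143 and 126, then 75, 87 and 95 with VC. In WT the day 2 libraries without VC reached into the day 0 range, and all day 4 libraries lay below it.

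Klf5 fell in 7 of the 8 comparisons with day 0, the exception being WT at day 2 without VC (log2 -0.46, adjusted p = 0.24). In D/KO it fell by 1.56 at day 2 and 1.79 at day 4, and plus VC by 1.98 at day 2 and 2.93 at day 4 (SE 0.26, adjusted p = 3.03e-12). In WT it fell by 1.30 at day 4 (adjusted p = 0.0001), and plus VC by 1.02 at day 2 and 1.82 at day 4 (SE 0.25, adjusted p = 1.04e-07). The fall at day 4 plus VC was greater in D/KO than in WT by log2 1.10 in size (interaction -1.10, SE 0.36, adjusted p = 0.0169, and 0.0894 without D/KO day 4 plus VC replicate 2). The same difference at day 2 (-1.10, adjusted p = 0.0602) was called without replicate 3 of day 2 in D/KO (adjusted p = 0.0375) or in WT (0.0205). VC alone raised Klf5 at day 0 in D/KO from 6.50 ± 1.57 to 19.6 ± 1.23 CPM (SD, n = 3, log2 1.59, SE 0.24, adjusted p = 2.17e-06), and the WT difference of 0.56 was not called (adjusted p = 0.0618). In the same D/KO comparison 7 of 8 endothelial markers fell and 1 rose, where 25.9% of all genes were called. Of 12 fibroblast markers 6 rose and 3 fell. Their part in the Klf5 and Trp63 changes was not tested. VC against no VC raised Klf5 in D/KO at day 2 too (1.17, adjusted p = 0.00152). The difference at day 4 (0.45, adjusted p = 0.257) was called without D/KO day 4 replicate 3 (0.85, adjusted p = 0.045). Against day 0 without VC instead, Klf5 at day 2 plus VC was -0.39 in D/KO and -0.46 in WT, neither called. D/KO was lower than WT in 5 of 6 comparisons, from -0.74 at day 2 plus VC to -1.91 at day 2, and not at day 0 plus VC (0.22, adjusted p = 0.571). The call at day 2 plus VC gave adjusted p = 0.0667 without WT day 2 plus VC replicate 1 and 0.0561 without D/KO day 2 plus VC replicate 1, and that at day 4 plus VC 0.0803 without D/KO day 4 plus VC replicate 2. Among the 12 ranked groups, D/KO and WT at day 0 plus VC overlapped at the top, and 4 of the 11 neighbouring pairs were separate in range.

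**Figure D2:**
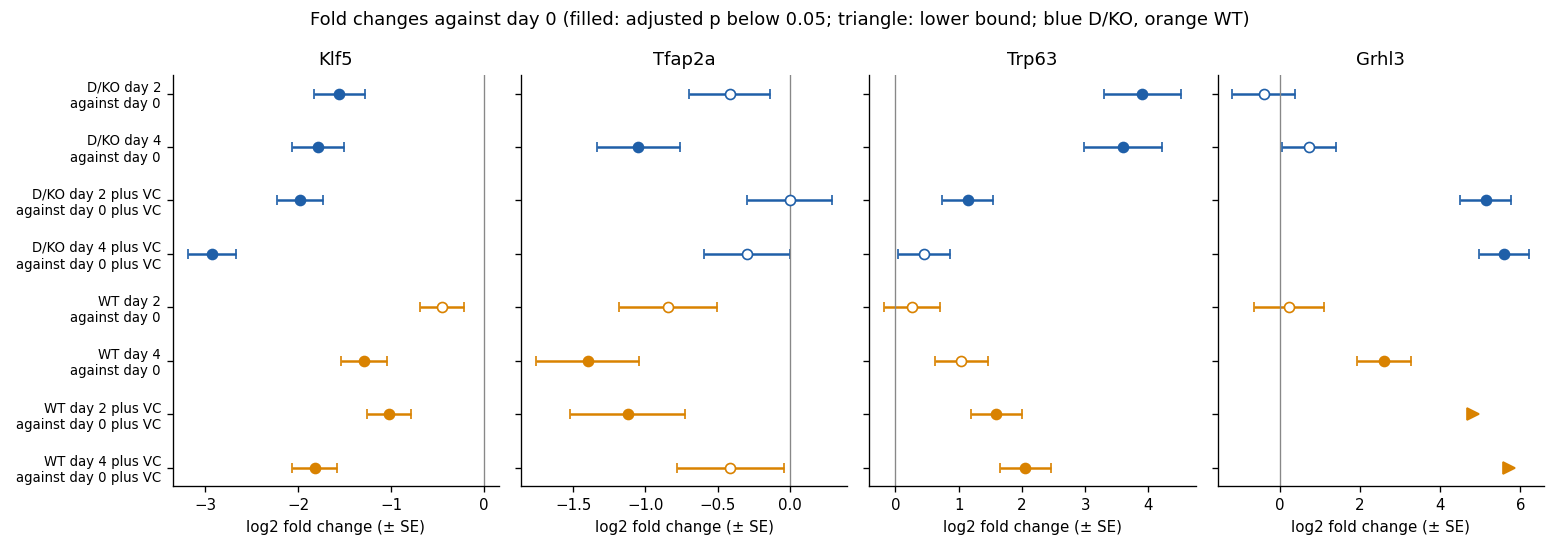
Log2 fold changes (± SE, horizontal axis) of 4 members at days 2 and 4 against the day 0 group of the same genotype and VC state. Filled circles passed an adjusted p of 0.05, open ones did not, and blue is D/KO and orange WT. Orange triangles for Grhl3 in WT plus VC are lower bounds with no error bar (28.4-fold and 52.7-fold, drawn on the log2 axis), since the day 0 group had no read. Klf5 lies left of 0 in all 8 comparisons.

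Ovol1 (chr19:5599164-5610674, minus strand) reached at most 3 reads in a library, with 12 reads in all, 4 of them in D/KO and 4 in WT at day 4 plus VC. Esrp1 (chr4:11331933-11386783, minus strand) had 11 reads in 3 of the 36 libraries. At this depth no change was detectable for either, and both failed the filter on low counts in each table.

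Counts of called members were read against all genes tested. Only 5 of the 9 members were tested in the reprogramming series, and the shares of all genes are over tested genes. Against day 0, D/KO had 2 of these 5 members called at day 2 (27.4% of all 15832 genes), 3 at day 2 plus VC (47.2%), 3 at day 4 (36.8%) and 3 at day 4 plus VC (53.8%). WT had 0 called at day 2 by edgeR (10.6%, with 0 by DESeq2, and Tfap2a at an unadjusted p under 0.05), 4 at day 2 plus VC (27.4%), 3 at day 4 (24.3%) and 4 at day 4 plus VC (44.5%). Since Grhl1 and Grhl3 passed the filter through the groups in which they were high, these counts say nothing about the group as a whole. Day 4 against day 2 gave few calls, Klf5 lower in D/KO plus VC (log2 -0.95, 15.4% of genes called) and in WT with VC (-0.80, 20%) and without VC (-0.84, 21.4%), and Grhl3 higher in WT without VC (2.37). These Klf5 calls were lost in 1, 3 and 3 of 6 fits that left out a library, with adjusted p of 0.128 without D/KO day 4 plus VC replicate 2, 0.0963 without WT day 2 plus VC replicate 1 and 0.111 without WT day 2 replicate 1. D/KO without VC had 0 by edgeR (9.41%) and by DESeq2, with Tfap2a at an unadjusted p = 0.0355 in edgeR's fit across all genes. VC against no VC called 3 members in D/KO at day 0 (25.9%), 2 at day 2 (25.1%) and 1 at day 4 (34.3%), and in WT 0 at day 0 by edgeR (29.3%, 0 by DESeq2, with Grhl3 and Klf5 at an unadjusted p under 0.05), 2 at day 2 (26.4%) and 2 at day 4 (22.2%). D/KO against WT called 3 members at day 0 (43% of genes), 1 at day 0 plus VC (20.3%), 2 at days 2 (42.4%) and 4 (50.8%), and plus VC 2 at day 2 (39%) with 3 at day 4 (53.8%). Of the differences between the genotypes' changes, 1 was called at day 2 (6.58%), 0 at day 2 plus VC by edgeR (13.7%, Klf5 by DESeq2, with Tfap2a and Klf5 at an unadjusted p under 0.05), 1 at day 4 (14.1%) and 2 at day 4 plus VC (29.1%). Of the differences between the changes with and without VC, 2 were called in D/KO at day 2 (14.3%) and 3 at day 4 (26.7%), and 1 in WT at each of days 2 (5.46%) and 4 (15.3%). The median log2 change of all genes lay between -0.0361 and 0.0325 over all 40 comparisons.

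The wider epithelial programme was described from lists of related genes, at day 4 plus VC against day 0 plus VC. Of 17 related regulators, 6 were tested and 2 rose in D/KO, with a median of 0.37 on the log2 scale against 0.01 for all genes, and 27.8% of all genes rose in this comparison. The count was 4 when any 1 of the 3 day 0 plus VC libraries, or replicate 3 of day 4 plus VC, was left out. Among the 2 was Ehf, an ETS factor of epithelia, with 237 reads against 0 (at least 60.8-fold). Esrp2, the relative of Esrp1, was at 0.39 in D/KO (adjusted p = 0.322) and fell in WT by 1.70 (adjusted p = 0.000341). In WT none of the 6 rose and 2 fell, Esrp2 and Gata3 (log2 -1.02), with a median of -0.75.

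Of 36 genes of epithelial junctions and adhesion, 21 were tested, and in D/KO 18 rose and 1 fell (median 3.24, where 27.8% of all genes rose), against 12 and 4 in WT (median 1.27, where 22.6% of all genes rose). Itgb4, the integrin of hemidesmosomes, rose in D/KO from 9.72 ± 2.13 to 1443 ± 170 CPM (SD, n = 3, log2 7.22, adjusted p = 9.06e-29) and in WT by log2 5.39. Lamb3, a laminin chain of the basement membrane, rose by 6.83 and 4.44, and Itga6, the partner of Itgb4, by 3.24 and 2.66. Cdh1, the epithelial cadherin, named here after its values were seen, went from 2 reads to 2479 in D/KO and from 0 to 9 in WT. The difference between the genotypes' changes was called in favour of D/KO for 13 of the 21 and against it for 1 (29.1% of all genes called). VC alone had shifted the day 0 reference of these genes. It lowered 9 and raised 1 in D/KO (median -0.84, 25.9% of all genes called). In WT it lowered 6 and raised 2 (median -0.10, 29.3%). Without VC, day 4 against day 0 gave 13 higher and 4 lower in D/KO (median 1.88, 36.8%). In WT it gave 7 higher and 3 lower (median 0.38, 24.3%).

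Of 8 transcription factors that drive epithelial to mesenchymal transition, 6 fell and 1 rose in D/KO (median -0.40), and 2 fell and 2 rose in WT (median 0.10), where of all genes 53.8% were called in D/KO and 44.5% in WT, shares that also stand behind the list counts that follow for this comparison. The 6 falls became 4 to 5 in every fit that left out a library. Twist2 fell by 1.76 in D/KO and 1.26 in WT, Snai1 fell by 1.36 and 1.21, and Prrx1 rose by 0.42 and 0.58. Of 12 fibroblast markers, 9 fell and 1 rose in D/KO (median -1.28) and 7 fell and 2 rose in WT (median -0.73). Col1a1, the chain of collagen I at whose locus the factor cassette lies, fell by 3.67 in D/KO and 2.28 in WT, Lum fell by 3.38 and 1.23, and Col1a2 fell by 2.89 and 1.51. These falls start from a day 0 level that was higher with VC alone. The mean fibroblast sum at day 0 was 116000 CPM without VC and 232000 plus VC in D/KO, and 66500 and 173000 in WT. At day 4 plus VC it was 39500 in D/KO and 71900 in WT. Without VC, day 4 against day 0 gave 8 lower and 1 higher in D/KO (median -0.80, 36.8% of all genes called). In WT it gave 3 lower and 3 higher (median 0.19, 24.3%).

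Markers of other cell types were counted in the same comparison (53.8% of all genes called in D/KO and 44.5% in WT). Of 10 keratinocyte markers, 5 were tested and in D/KO 4 rose and 1 fell (median 4.21 with genes at 0 set to their bound), and their sum went from 4.82 to 5.24 CPM at day 0 plus VC to 311 to 442 CPM at day 4 plus VC. Nearly all of that was Krt14, a keratin of basal keratinocytes, at 367 ± 71.4 CPM against 0 reads, with Krt1 at 157 reads against 0 and Col17a1 higher by log2 4.21. In WT 2 keratinocyte markers rose and the sum reached 11.7 to 13.2 CPM, with Krt14 at 6.59 ± 0.31 CPM. Melanocyte markers gave 0 higher and 2 lower of 4 tested in D/KO, Kit by -6.67 and Mitf by -0.87, while Pmel was at -0.94 (adjusted p = 0.0502), and 1 higher (Mitf) and 1 lower (Pmel) in WT. The WT calls came to 0 or 1 in all 6 fits that left out a library. Endothelial markers gave 3 higher and 4 lower of 8 in D/KO, among them Tek (3.65) and Pecam1 (1.76) higher and Emcn (-2.77) lower, and 1 and 1 in WT. Haematopoietic markers gave 1 higher (Itgam, 4.29) and 2 lower (Csf1r, -3.39, and Lyz2, -2.20) of 6 tested in D/KO, and 0 and 3 in WT. The part of these cell types in the levels of the 9 regulators was not tested.

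**Figure D3:**
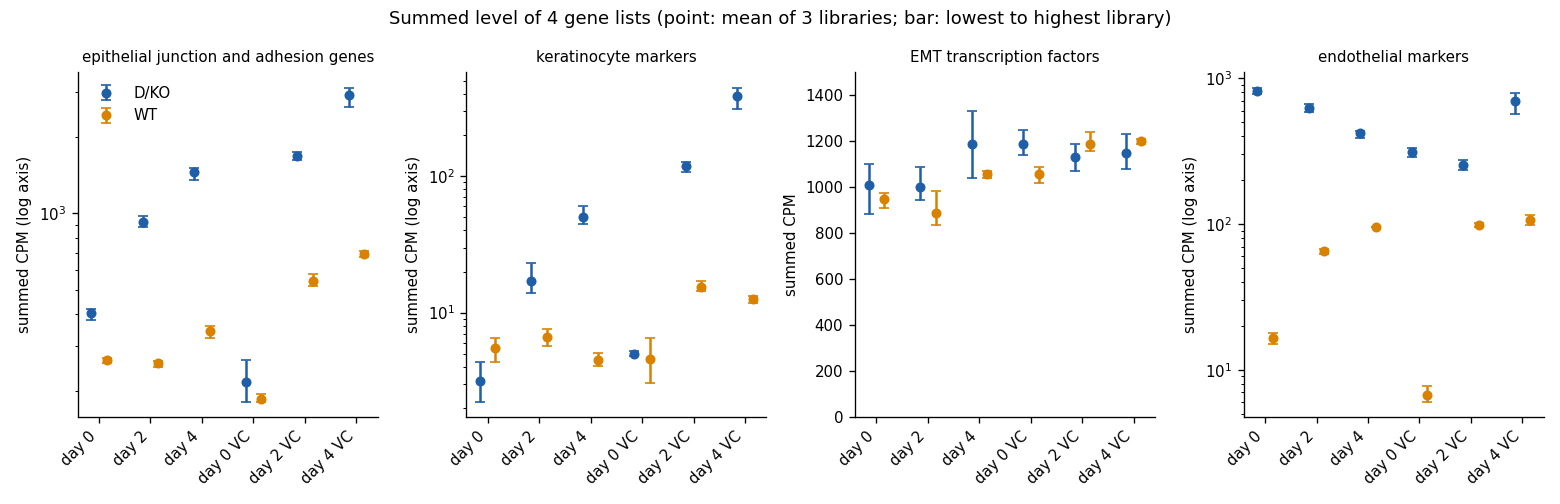
Summed CPM of 4 gene lists in the reprogramming table, with points for the mean of 3 libraries and bars from the lowest to the highest library (log axes, except the linear axis from 0 for the EMT factors). Blue is D/KO and orange WT. The junction and keratinocyte sums are highest in D/KO at day 4 plus VC, the EMT sum stays between 837 and 1330 CPM, and the endothelial sum is higher in D/KO than in WT in all 6 conditions.

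In the inhibitor table, Klf5 was the member that answered the TGFb receptor blockers. Control D/KO libraries held 112, 82 and 81 reads, Repsox 265, 190 and 302, Vactosertib 186, 254 and 182, A83-01 238, 254 and 286, and DMH-1 198, 204 and 130. On the CPM scale these were 4.52 ± 0.45 for control, 9.36 ± 1.56 for Repsox, 9.32 ± 0.42 for Vactosertib, 9.81 ± 0.71 for A83-01 and 6.40 ± 0.17 for DMH-1 (SD, n = 3). No treated library overlapped the controls. Klf5 rose by log2 1.05 with Repsox (SE 0.18, adjusted p = 0.000175, where 20.6% of the 15652 genes were called), 1.04 with Vactosertib (adjusted p = 0.000247, 17.9%) and 1.12 with A83-01 (adjusted p = 5.79e-05, 27.4%). DMH-1 gave 0.50 with a 95% interval of 0.13 to 0.88 and was not called (adjusted p = 0.106, 7.23%).

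The compounds given at the same dose were compared directly, as 2 pairs, with p-values adjusted over all genes. A83-01, a TGFb receptor blocker, exceeded DMH-1, a BMP receptor blocker, in Klf5 by 0.62 (95% interval 0.26 to 0.98, adjusted p = 0.0136, 20.4% of genes called). The call was lost without A83-01 replicate 3 (adjusted p = 0.0611) or DMH-1 replicate 1 (0.0518). Repsox and Vactosertib, both TGFb receptor blockers though Vactosertib also acts on ALK2, differed by 0.01 (95% interval -0.35 to 0.37). For that pair edgeR called 0 of all genes (0%), with 342 at an unadjusted p under 0.05, and DESeq2 called 4. Trp63 and Tfap2a were not called under any inhibitor. Trp63 held 4, 6 and 10 reads in controls, 27, 7 and 24 with Repsox, 9, 18 and 16 with Vactosertib, 17, 27 and 11 with A83-01 and 21, 24 and 5 with DMH-1, with differences of 0.78 to 1.08 whose 95% intervals all held 0. Tfap2a held 98, 100 and 91 reads in controls and 78 to 183 in treated libraries, with differences of -0.32 to 0.34. The other 6 members had 6 to 31 reads each over all 24 libraries, with at most 6 in one.

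Among the untreated lines of this table, Trp63 was 11.9 ± 1.40 CPM in WT tail tip (310, 347 and 260 reads), 1.69 ± 0.23 in WT skin (35, 46 and 26 reads) and 0.351 ± 0.216 in control D/KO. Against WT tail tip, Trp63 gave log2 -5.13 in control D/KO and -2.81 in WT skin, both called, and the 3 groups did not overlap. Keratinocyte markers summed to 4.21 to 5.97 CPM in WT tail tip, 2.93 to 3.75 in WT skin and 2.78 to 3.49 in control D/KO, with 6 of the 10 markers at 0 in WT tail tip. Endothelial markers summed to 79.7 to 97.7 CPM in WT tail tip, 211 to 286 in WT skin and 361 to 395 in control D/KO, with 0 of the 8 at 0, so they moved with these differences too, and their part was not tested. Klf5 was 24.8 ± 5.90 CPM in WT tail tip against 8.10 ± 1.66 in WT skin and 4.52 in control D/KO (log2 -2.46 for D/KO and -1.61 for skin against tail tip, both called). Tfap2a ran the other way, at 9, 9 and 18 reads in WT tail tip, 16, 31 and 18 in WT skin and 98, 100 and 91 in control D/KO (log2 3.33 for D/KO against tail tip, adjusted p = 3.36e-07). Its rise in skin (1.13, adjusted p = 0.0359) gave adjusted p up to 0.153 without skin replicate 2. All 3 tested members were called in both comparisons, where 34.5% and 34.1% of genes were.

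**Figure D4:**
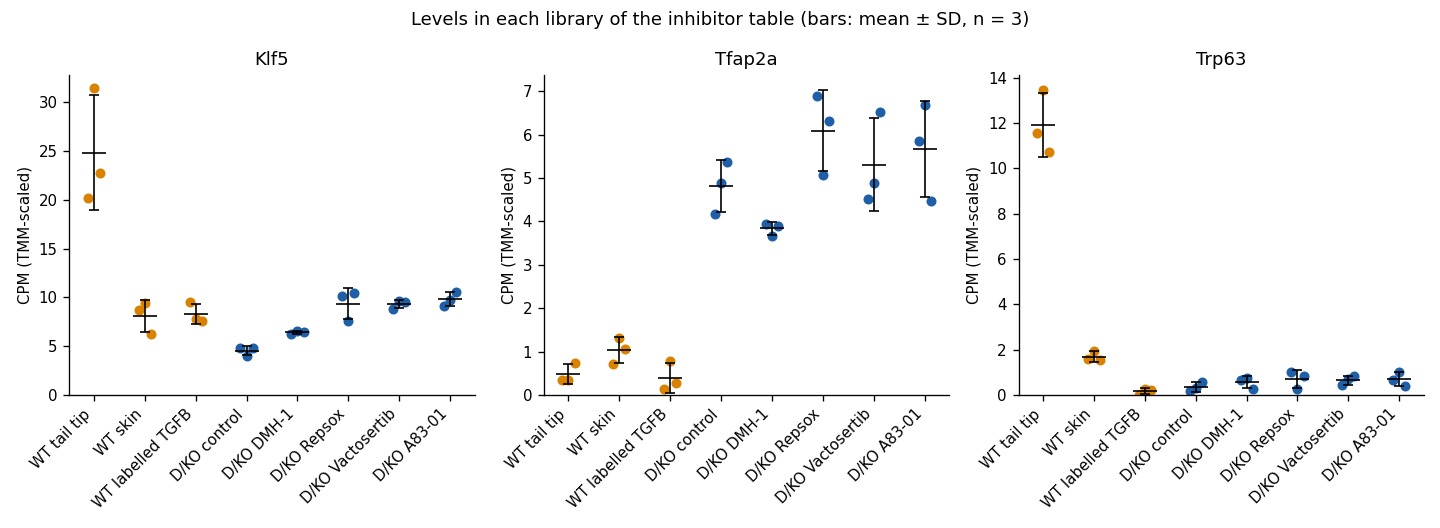
Klf5, Tfap2a and Trp63 in CPM (TMM-scaled, linear axes from 0) in each library of the inhibitor table, with bars for the mean ± SD of 3. Orange marks WT and blue D/KO. Klf5 is 4.00 to 4.78 CPM in control D/KO libraries and 7.57 to 10.6 with the 3 TGFb receptor blockers, and Trp63 is above 10 CPM only in WT tail tip.

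The same lists were described for A83-01 against control D/KO. Of the related regulators 1 of 4 tested fell, Esrp2 (log2 -2.03), and Gata3 was at 0.49 (adjusted p = 0.289). Of 20 junction genes tested, 6 rose and 4 fell (median -0.08), among the latter F11r (-1.30). Of the 8 EMT factors, 5 rose and 1 fell (median 0.52), with Twist1 at 1.10 and Prrx1 at 0.52. The 1 fall was lost in all 6 fits that left out a library. Fibroblast markers gave 2 higher, Dcn (0.90) among them, and 6 lower, Thy1 (-0.74) among them, of 12. Keratinocyte markers gave 1 lower of 4, Ivl (-3.36), with Krt10 at -0.53 and not called. Melanocyte markers gave 2 higher and 1 lower of 4, with Sox10 at 1.49 and Kit at -2.60. Endothelial markers gave 1 higher, Tek (1.09), and 4 lower, Tie1 (-1.66) among them, of 8. Haematopoietic markers gave 2 higher of 5, Adgre1 (2.32) and Lyz2 (0.77). The keratinocyte call was lost in 4 of the 6 fits that left out a library. The haematopoietic count moved in 5 of them, down to 0. Across all genes 27.4% were called here, and the part of these lists in the Klf5 change was not tested.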

How the data were processed

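RNA was sequenced as paired reads on an Illumina NovaSeq. The authors used FastQC, Trim Galore, HISAT2 on GRCm39 and featureCounts, and deposited raw read counts per gene, which were used as deposited. Tool versions, annotation release and strand setting are not given in the sources used here, so reads of overlapping opposite-strand genes cannot be told apart. Of 56980 identifiers, 98.7% matched a current gene symbol. Both count tables were fitted with edgeR 4.0.16 in R 4.3.3 (TMM, 1 coefficient per group, quasi-likelihood F-test, two-sided), after a filter on genes under 10 counts, and 40 contrasts were called at adjusted p under 0.05 (Benjamini-Hochberg over all genes of a contrast). The study used DESeq2, run here (1.42.0) as an alternative. Scripts were tested on simulated counts. CPM values carry TMM scaling, and levels are compared between genes only per kilobase. Folds against a group at 0 are bounds set by 3 counts over that group, and cover counting error in that group only.

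The members and lists were chosen with earlier results of these data known. From each list the text names the 3 genes of lowest p when D/KO cells of day 4 plus VC are set against day 0 plus VC, with a further 2 of lowest p for A83-01. Some of these genes are not reported here. For each tested member the text also names the 3 genes of highest correlation. Replicates differed by more than counting noise in every pair (variance ratio 3.18 or more). No contrast used the WT libraries labelled TGFB, which have no control of their own line in the same table.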

Additional observations from a re-analysis of the deposited data

Results flagged for a closer look

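A difference between groups under the same contrast brought out 11 results, each tested by an interaction term in edgeR. The Trp63 change from day 0 was greater in D/KO than in WT at day 2 (log2 difference 3.64) and at day 4 (2.56), and smaller at day 4 plus VC (-1.60). The Klf5 change at day 4 plus VC was further below 0 in D/KO than in WT (-1.10). Between the change with VC and the change without VC, Grhl3 differed in D/KO by 5.54 at day 2 and 4.87 at day 4, and in WT by 7.77 at day 2 and 6.28 at day 4. Grhl3 passed the filter on low counts through the plus VC groups that carry this difference, and with no filter the D/KO values were 5.54 and 4.87 and still called (adjusted p = 2.56e-05 and 6.43e-05). Those p-values rest on the same reads. The WT values are fitted against a group with 0 reads, so they are no bound. Trp63 differed in D/KO by -2.76 at day 2 and -3.15 at day 4, where VC alone had already raised the day 0 level, and Klf5 by -1.14 at day 4. These comparisons share day 0 libraries with one another. At day 2 the Trp63 value of -2.76 gave an adjusted p of 0.0595 without D/KO day 0 replicate 3 and 0.0505 without D/KO day 0 plus VC replicate 1.

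The 3 WT libraries labelled TGFB entered no comparison. Tfap2c was above WT tail tip control in each of them, at a mean of 0.0906 CPM. This rested on 2, 3 and 1 reads against 0, 1 and 0, so no change was detectable at this depth.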

How the results depend on the processing

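The alternatives were RLE scaling, no filter, a minimum of 20 counts, DESeq2, fits on only the groups compared, day 0 without VC as the baseline, 18 inhibitor libraries, and leaving out each library. RLE changed no member call, nor did the minimum of 20 among the members it left, which excludes Grhl1. No paired analysis was possible because the columns carry only running numbers that groups do not share. Low counts limit the members: 4 of the 9 had too few for a test in reprogramming libraries, as did 6 in inhibitor libraries.

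Grhl1 in D/KO at day 4 plus VC lost its call with no filter (adjusted p = 0.0831) and DESeq2 (0.116). Klf5 gained the genotype difference at day 2 (-1.10 with no filter, -1.11 with DESeq2) and at day 2 plus VC (-0.96 with no filter, -0.95 with DESeq2, -0.98 with only the groups compared). Klf5 in D/KO at day 4, change with VC minus change without, lost its call with only the groups compared (adjusted p = 0.0817), and in 5 of 12 fits without a library, up to 0.199 without D/KO day 4 replicate 3. The 2 weaker Tfap2a calls were lost with no filter (0.0523 and 0.0543) and with only the groups compared (0.0754 and 0.0579), and Tfap2a in skin with the latter (0.148). Tfap2a in D/KO at day 2 plus VC lay at 0 and turned sign with no filter (0.003085), with only the groups compared (0.001945) and without single libraries (-0.0995 to 0.0748). Grhl3 in WT at day 0, VC against none, ranged from -4.52 to 0. With day 0 without VC as the baseline, 5 members were called in D/KO at day 4 plus VC, and Grhl1 in WT lost its call (1.66, adjusted p = 0.25). The share of all genes called against that baseline is not given here. Grhl1 and Grhl3 passed the filter on low counts through groups plus VC, so that count says nothing about the members as a group. The cause of the changed calls was not tested.

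Counts of members called moved as follows. With only the groups compared there were 1 in WT at day 4 against day 2, 2 in the same contrast plus VC, 2 for VC in D/KO at day 4, 1 for VC in WT at day 0, 1 for the genotype difference at day 2 plus VC and 2 for A83-01 against DMH-1. With no filter there were 1 for VC in WT at day 0, 2 for the genotype difference at day 2 and 1 at day 2 plus VC, and with DESeq2 2 and 1 for these differences.

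List counts moved too. Related regulators higher in D/KO were 4 with no filter, DESeq2 or the other baseline and 1 with the minimum of 20. The other baseline gave 1 related regulator, 2 junction genes lower and 2 EMT factors higher in D/KO, and in WT 0 related regulators lower and 0 melanocyte markers. In WT, melanocyte markers called were 1 with RLE or DESeq2 and 0 with no filter, endothelial 4 with no filter or DESeq2, and keratinocyte 1 with only the groups compared. With A83-01, related regulators higher were 1 with no filter or DESeq2, EMT factors lower 0 with no filter and 2 with only the groups compared, keratinocyte markers 0 with only the groups compared or 18 libraries, and haematopoietic 1 with no filter.

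Without single libraries, counts of members called ran from 0 to 2 in D/KO day 4 plus VC against day 2 plus VC, 1 to 2 in WT day 4 against day 2 and 0 to 1 in the same plus VC. For VC they ran from 1 to 2 in D/KO at day 4 and 0 to 1 in WT at day 0, for D/KO against WT from 1 to 2 at day 2 plus VC and 2 to 4 at day 4, and for the genotype difference from 1 to 2 at day 2, 0 to 1 at day 4 and 1 to 2 at day 4 plus VC. For the change with VC minus that without they ran from 1 to 2 in D/KO at day 2, 0 to 1 in WT at day 2 and 0 to 2 in WT at day 4, and for A83-01 against DMH-1 from 0 to 1. List counts ran from 2 to 4 (related regulators higher in D/KO), 1 to 2 (related regulators lower in WT), 0 to 1 (melanocyte, WT), 2 to 5 (endothelial, WT), and with A83-01 0 to 1 (related regulators higher), 0 to 0 (EMT factors lower), 0 to 1 (keratinocyte) and 0 to 2 (haematopoietic).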

Other observations

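The genes whose mean log2 CPM over the 12 groups of the reprogramming table was most like a member's were named as a description, with no p, over groups that share lines and day 0 treatments. For Klf5 these were Postn (r = 0.981), Snx25 (0.974) and Alg1 (0.973). For Tfap2a they were Adamtsl2 (0.974), Egfl7 (0.971) and Riok3 (0.97), for Trp63 Omd (0.956), Mtnap1 (0.941) and Rab30 (0.932), for Grhl3 Ccnb1ip1 (0.953), Clec2g (0.948) and Ptgs2os2 (0.947), and for Grhl1 Dcaf1 (0.928), Ppp1r9a (0.923) and Cd2ap (0.921). Between members over the same 12 groups, Grhl1 and Grhl3 were the most alike (r = 0.837), and Klf5 and Grhl1 went opposite ways (r = -0.567). Grhl1 had at most 15 reads in any of the 36 libraries and 0 in 15 of them, so its correlations rest on values near 0. Ccnb1ip1 was low too, at group means of 0.114 to 0.456 CPM.

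In the 3 WT libraries labelled TGFB, Klf5 was 8.31 ± 1.06 CPM (SD, n = 3), Tfap2a 0.397 ± 0.343 CPM and Trp63 0.169 ± 0.148 CPM, and Grhl3 had no read. The endothelial markers summed to 1.48 to 2.02 CPM there.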
